A study of Mus musculus with 2 samples.

Results

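The proteasome is the barrel-shaped protease that degrades ubiquitin-tagged proteins, and its subunit genes were followed here in mouse bone marrow osteoclast precursors. The members are the array genes whose name starts with PSM, then a letter from A to G, then a digit. They number 43 of the 31492 array genes, and all 43 names match a current RefSeq symbol. By symbol they are 14 subunits of the constitutive 20S core, 3 immunoproteasome subunits, 16 subunits of the 19S regulatory particle and 3 assembly chaperones of the 19S particle. The rest are 4 activator chains, 1 inhibitor and 2 genes that match by name only. These 2 are Psmc3ip, a meiotic recombination factor that is no proteasome subunit, and Psme2b, a copy of Psme2.

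The RNA, from C57BL/6 mice aged 8 weeks, was read on Illumina bead arrays. The precursors were sorted from marrow as CD3-, CD45R-, CD11b lo/- and CD115+ and cultured for 3 days. The M-CSF + RANKL group received RANKL, the cytokine that starts osteoclast formation, and M-CSF, the growth factor of monocytes and macrophages, both at 30 ng/ml. The M-CSF group received M-CSF alone at 30 ng/ml. RNA came from the adherent cells only. Each group is 1 deposited mean with its SD over 3 biological replicates, each on its own array, so no single array can be shown. What made the replicates separate is not stated, and p-values measure only the spread between them.

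The 20S core is a stack of rings of alpha and beta subunits, and 3 of the beta subunits (Psmb5, Psmb6 and Psmb7) carry the protein-cutting sites. In cells exposed to interferon, and at a basal level in many immune cells, these are replaced by Psmb8, Psmb9 and Psmb10, which makes the immunoproteasome and changes the peptides offered on class I molecules. The 19S particle recognises, deubiquitinates and unfolds substrates, while the PA28 and PA200 activators open the core in other ways. In osteoclast precursors, degradation of the NF-kB inhibitor by the proteasome is a step of RANK signalling.

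The labels were checked on marker lists. With RANKL, 8 of 8 tested osteoclast markers were higher, and 8 of 9 macrophage markers were lower. The defining T and NK cell markers (0 of 7) and stromal markers (0 of 5) were detected in neither group, while 7 of 8 granulocyte genes were detected in both. Also detected in both, by detection p, were 1 of 5 B cell markers (Cd79b) and 1 of 4 erythroid markers (Hbb-b1). Hbb-b1 read 168 ± 7.01 with RANKL and 165 ± 11.5 with M-CSF alone, under the detection floor (196 and 198, defined below). Background signal was about 144 in both groups. A fold is the ratio of the group means of linear intensity, and an array gene was tested if its detection p was under 0.01 in at least 1 group. The test is a limma moderated test on the deposited means and SDs, its p adjusted by Benjamini-Hochberg for the 11012 tested genes and called under 0.05. Fewer cells of a type and less RNA per cell cannot be told apart in such bulk samples.

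The immunoproteasome subunits and the activator chain Psme1 were lower with RANKL, while most constitutive core and 19S subunits did not pass the test. Among the 34 tested members, 5 were higher and 6 lower, so that 32.4% were called, against 57.8% of all tested array genes (28.9% higher and 29.0% lower). The called members were Psmb7, Psmd7, Psmd10, Psmd12 and Psmd14 above, and Psmb4, Psmb8, Psmb9, Psmb10, Psme1 and Psmc3ip below. These counts include the name matches Psmc3ip, which is no proteasome subunit, and Psme2b. Without Psmc3ip 33 members were tested. The median size of the log2 fold, sign left out, was 0.11 over the tested members and 0.33 over all tested genes. The standard errors were alike, with medians of 0.09 for the members and 0.10 for all tested genes. Means of the 2 groups lay within 20% of each other for 23 of the 34 members (67.6%), against 42.7% of all tested genes. No test of these shares was made.

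**Figure D1:**
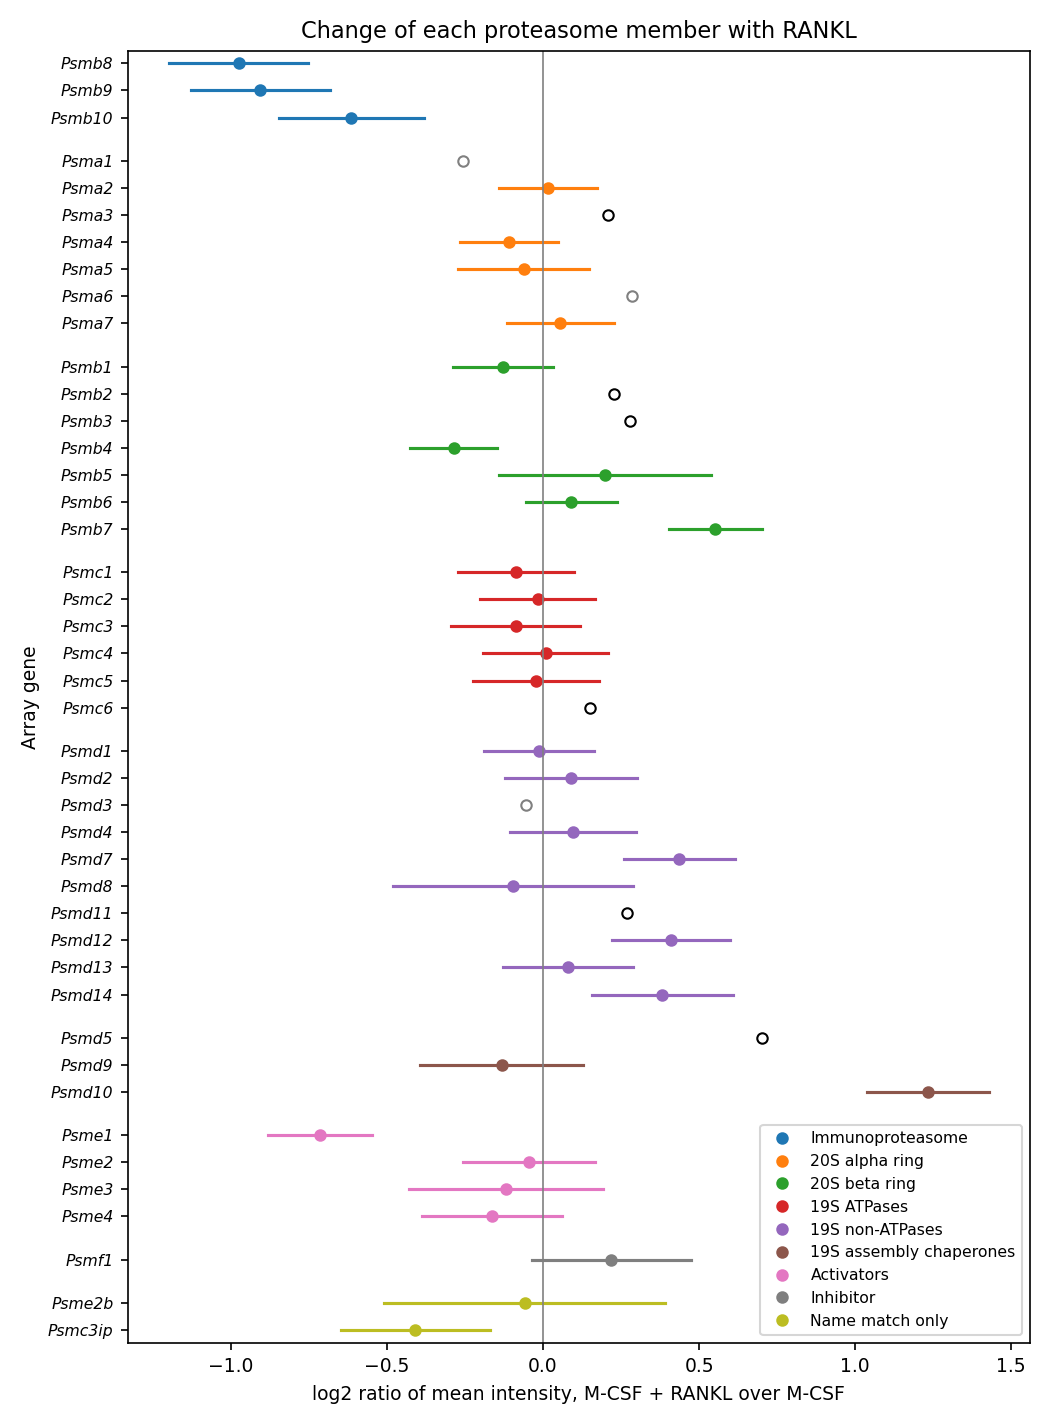
Log2 ratio of mean intensity (M-CSF + RANKL over M-CSF) of each of the 43 members, one row per array gene and coloured by class. Filled points are tested members with their 95% interval from the limma moderated variance, and open points are members left out of the test (black outline, at or above the detection floor in a group; grey outline, under it in both). The 3 immunoproteasome subunits and Psme1 lie left of 0 and Psmd10 lies farthest right, at 1.23.

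All 3 immunoproteasome subunits were lower with RANKL, with a median log2 fold of −0.91 against 0.00 for all tested genes. Among all tested genes 29.0% were lower. Psmb8, the replacement of Psmb5 whose site cuts after hydrophobic residues, had a mean intensity of 3047 ± 245 with RANKL and 5990 ± 580 with M-CSF alone (SD, n = 3 each). The groups' mean ± SD ranges do not overlap, and the log2 fold was −0.98 ± 0.10 SE, 1.97-fold lower (limma adjusted p = 5.84e-06). Psmb9, the replacement of the caspase-like subunit Psmb6, had 1247 ± 62.8 with RANKL and 2336 ± 214 with M-CSF alone. It was 1.87-fold lower (log2 −0.91 ± 0.10 SE, limma adjusted p = 1.18e-05), again without overlap of the ranges. Psmb10, the replacement of the trypsin-like subunit Psmb7, had 4171 ± 178 with RANKL and 6385 ± 887 with M-CSF alone. It fell least of the 3, 1.53-fold (log2 −0.61 ± 0.11 SE, limma adjusted p = 0.000368). With both SDs doubled, the adjusted p of Psmb10 was 0.0505 in limma.

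Of the constitutive counterparts 1 was higher and the others did not pass. Psmb5 read 5028 ± 728 with RANKL and 4382 ± 1007 with M-CSF alone, ranges that overlap widely. Its fold was 1.15, with a 95% interval of 0.906 to 1.45 (limma adjusted p = 0.294). Psmb6 read 17926 ± 240 with RANKL and 16832 ± 707 with M-CSF alone, a fold of 1.06 with an interval of 0.963 to 1.18 (limma adjusted p = 0.263). Psmb7 had 18650 ± 415 with RANKL and 12717 ± 468 with M-CSF alone. It was 1.47-fold higher (log2 0.55 ± 0.07 SE, limma adjusted p = 2.38e-05).

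Each immunoproteasome subunit can be set against the subunit it replaces by subtracting their log2 folds, which avoids comparing the brightness of different probes. The log2 fold of Psmb8 minus that of Psmb5 was −1.17 ± 0.19 SE. For Psmb9 minus Psmb6 it was −0.996 ± 0.12, and for Psmb10 minus Psmb7 it was −1.17 ± 0.13. The ratio of immunoproteasome to constitutive signal thus was 2.26, 1.99 and 2.24 times lower with RANKL for these 3 pairings. Psmb10 changed least among the replacements, but its counterpart rose, so its difference is as large as that of Psmb8. These standard errors take the 2 genes of a pairing as independent, which single arrays would be needed to check, and no p is given.

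**Figure D2:**
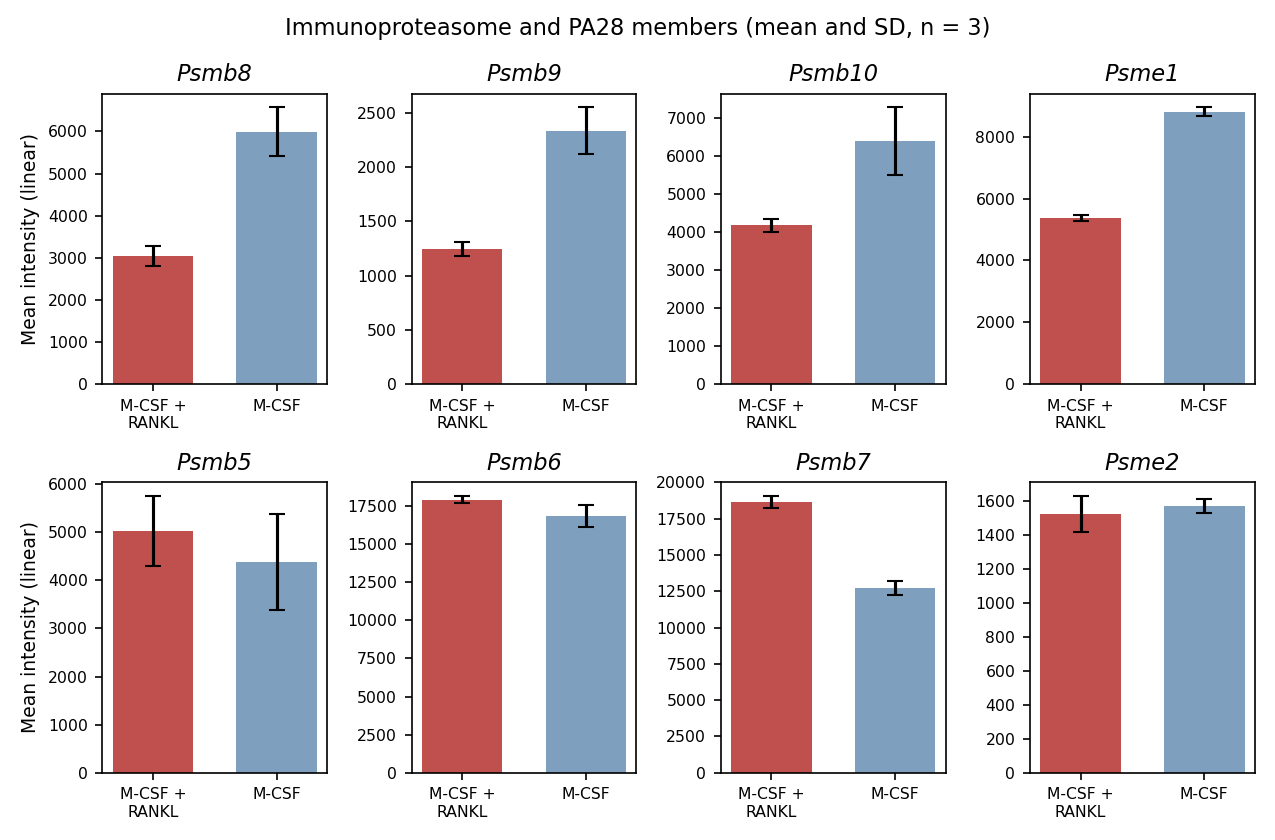
Mean intensity (linear scale from 0) of the 3 immunoproteasome subunits and Psme1 in the upper row and of their partners Psmb5, Psmb6, Psmb7 and Psme2 in the lower row. In each panel the left bar is M-CSF + RANKL and the right bar M-CSF, with the SD over 3 replicates. All 4 upper panels are lower with RANKL, whereas Psmb7 is higher and the bars of Psmb5, Psmb6 and Psme2 did not differ past the test's threshold.

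The RefSeq promoter windows (GRCm38.p6, from 250 bases before to 50 bases after the transcript start) are shown for some of the genes compared here. Printed are 3 genes that were lower with RANKL and the constitutive Psmb5 and Psmb6, which were not called. All run 5′ to 3′ on the gene's own strand. Psmb10 is not printed, and Psmb7 has no window. Capitals mark matches to 3 motifs searched on both strands. These are the gamma-activated site of interferon-induced genes (TTCNNNGAA), the interferon-stimulated response element (GAAA, any 2 bases, GAAA) and the core of the antioxidant response element (TGACNNNGC), to which the factor Nfe2l1 binds.
Psmb8 promoter, chr17:34197945-34198244, plus strand: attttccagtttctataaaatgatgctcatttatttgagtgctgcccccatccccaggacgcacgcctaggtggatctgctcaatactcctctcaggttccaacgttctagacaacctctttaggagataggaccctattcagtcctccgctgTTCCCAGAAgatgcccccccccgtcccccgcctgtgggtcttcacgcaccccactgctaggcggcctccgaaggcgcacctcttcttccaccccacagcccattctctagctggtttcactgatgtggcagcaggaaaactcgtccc
Psmb9 promoter, chr17:34187281-34187580, minus strand: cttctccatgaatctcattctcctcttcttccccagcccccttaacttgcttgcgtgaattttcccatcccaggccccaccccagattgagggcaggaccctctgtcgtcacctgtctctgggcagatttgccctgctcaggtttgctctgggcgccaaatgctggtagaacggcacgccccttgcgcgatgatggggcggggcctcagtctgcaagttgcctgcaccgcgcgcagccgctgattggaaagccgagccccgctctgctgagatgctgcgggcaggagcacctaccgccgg
Psme1 promoter, chr14:55578244-55578543, plus strand: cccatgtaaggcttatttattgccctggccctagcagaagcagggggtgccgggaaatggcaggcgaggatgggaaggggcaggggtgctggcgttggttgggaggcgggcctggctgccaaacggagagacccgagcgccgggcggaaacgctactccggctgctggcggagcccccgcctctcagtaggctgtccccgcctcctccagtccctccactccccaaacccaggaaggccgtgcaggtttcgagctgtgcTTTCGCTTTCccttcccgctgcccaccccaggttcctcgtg
Psmb5 promoter, chr14:54617946-54618245, minus strand: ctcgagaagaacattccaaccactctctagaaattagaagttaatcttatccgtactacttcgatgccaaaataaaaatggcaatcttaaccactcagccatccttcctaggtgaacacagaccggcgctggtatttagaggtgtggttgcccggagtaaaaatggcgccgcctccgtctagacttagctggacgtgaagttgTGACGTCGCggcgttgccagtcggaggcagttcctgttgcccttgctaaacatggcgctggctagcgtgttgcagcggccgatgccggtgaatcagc
Psmb6 promoter, chr11:70525107-70525406, plus strand: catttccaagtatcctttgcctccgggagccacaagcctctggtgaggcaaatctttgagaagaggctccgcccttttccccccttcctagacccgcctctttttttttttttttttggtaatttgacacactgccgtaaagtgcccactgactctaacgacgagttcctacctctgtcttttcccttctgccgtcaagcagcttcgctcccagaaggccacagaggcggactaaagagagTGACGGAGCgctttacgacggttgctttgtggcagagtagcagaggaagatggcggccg

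Psmb8 holds 1 match to the gamma-activated site, which begins 97 bases before the start. Psme1 holds 1 match to the interferon-stimulated response element, read on the opposite strand and beginning at base 10 of the transcript. Psmb5 and Psmb6 each hold 1 antioxidant response element core, beginning 47 and 9 bases before the start. Psmb9 holds none of the 3, and neither does the window of Psmb10, which is not printed. Of the 3 immunoproteasome genes, 0 hold the interferon element, against 3.44% of all windows. The gamma-activated site is held by 1 of them (Psmb8), against 8.30%. Shares over 3 genes say little. No printed window has overlapping matches. Over the 37 members with a window, the antioxidant core was found in 16.2% (Psmb5, Psmb6, Psmc6, Psmd12, Psmd9 and Psme4), against 12.4% of all 32851 windows. Shares of members count genes and the others count windows. The interferon element was found in 10.8% (Psmb3, Psmd4, Psmd9 and Psme1) against 3.44%, and the gamma-activated site in 5.4% (Psmb8 and Psmd2) against 8.30%. A match is a run of letters and not a measured site.

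Psmb9 and Psmb8 lie in the MHC region of chromosome 17, in the order Psmb9, Tap1, Psmb8, Tap2 among protein-coding genes. Psmb9 and Tap1 are transcribed away from each other, and 275 of the 300 bases of the printed Psmb9 window are also in the Tap1 window. Tap1, a subunit of the transporter that carries the cut peptides to class I molecules, read 386 ± 27.9 with RANKL and 446 ± 48.7 with M-CSF alone. The difference did not pass (log2 −0.21, limma adjusted p = 0.117). The log2 fold of Psmb9 minus that of Tap1 was −0.70 ± 0.15 SE. After subtraction of background, which matters for a gene as dim as Tap1, the log2 folds were −0.99 for Psmb9 and −0.32 for Tap1. Tap2, the other transporter subunit, read 2658 ± 502 with RANKL and 1375 ± 246 with M-CSF alone and was 1.93-fold higher (limma adjusted p = 0.000236), opposite to its neighbour Psmb8.

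The activators divided. Psme1 encodes the alpha chain of PA28, the ring that caps the core and is raised by interferon in many cells. It read 5366 ± 88.0 with RANKL and 8807 ± 139 with M-CSF alone, well apart, and was 1.64-fold lower (log2 −0.71 ± 0.08 SE, limma adjusted p = 6.82e-06). Psme2 encodes the beta chain that alternates with it in the ring. It read 1523 ± 108 with RANKL and 1572 ± 40.6 with M-CSF alone, a fold of 0.968 with an interval of 0.836 to 1.12 (limma adjusted p = 0.703). The log2 fold of Psme1 minus that of Psme2 was −0.67 ± 0.12 SE, a difference chosen after the values were seen. On chromosome 14 the 2 genes are separated by 1 protein-coding gene, Emc9. Psme2b, the copy of Psme2, read 1823 ± 464 with RANKL and 1898 ± 531 with M-CSF alone (limma adjusted p = 0.827), and cross-hybridisation between it and Psme2 was not examined.

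Neither of the other activators passed. Psme3, the nuclear PA28 gamma chain, read 5000 ± 616 with RANKL and 5428 ± 1121 with M-CSF alone, a fold of 0.921 with an interval of 0.743 to 1.14. Psme4, the PA200 activator, read 2916 ± 290 with RANKL and 3265 ± 207 with M-CSF alone, a fold of 0.893 with an interval of 0.765 to 1.04. The inhibitor Psmf1, which binds the ends of the core, read 1564 ± 122 with RANKL and 1344 ± 178 with M-CSF alone. Its adjusted p was 0.128 in limma.

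The alpha ring, which gates entry into the core, had no called member, against 57.8% called among all tested genes. The 4 tested members had log2 folds between −0.11 and 0.06. Psma2 read 41414 ± 3016 with RANKL and 40948 ± 2769 with M-CSF alone, a fold of 1.01 with an interval of 0.908 to 1.13. The intervals of Psma4, Psma5 and Psma7 lay within 0.828 and 1.17. Psma3, bright at 19166 ± 1359 with RANKL and 16606 ± 3078 with M-CSF alone, was not tested because its detection p was about 0.5 in both groups. Psma1 and Psma6, which every core contains, read at background in both groups, so the array gives no level for them.

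In the constitutive beta ring 5 of 7 members were tested, and besides Psmb7 only Psmb4 was called. This share of 40.0% compares with 57.8% called among all tested genes. Psmb4, a structural subunit without a cutting site, read 29529 ± 1002 with RANKL and 36011 ± 1994 with M-CSF alone. It was 1.22-fold lower (log2 −0.29 ± 0.06 SE, limma adjusted p = 0.00218). Psmb1 read 11795 ± 207 with RANKL and 12892 ± 723 with M-CSF alone, and the difference did not pass (limma adjusted p = 0.154). Psmb2 and Psmb3 were left out by their detection p although both are bright. Psmb3 read 11521 ± 341 with RANKL and 9504 ± 205 with M-CSF alone, and Psmb2 read 14881 ± 1099 with RANKL and 12709 ± 1010 with M-CSF alone. When genes were admitted by signal in place of detection p, which calls 58.3% of all genes tested, both were higher, with limma adjusted p of 0.00585 for Psmb3 and 0.0364 for Psmb2. With every array gene tested, Psmb3 passed (limma adjusted p = 0.0146) and Psmb2 did not (limma adjusted p = 0.0749). Over the 9 tested constitutive core members the median log2 fold was 0.02. Of them, 7 lay within 20% (77.8%, against 42.7% of all tested genes).

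The ATPases of the 19S particle, the ring of motors that unfolds substrates, had no called member, against 57.8% called among all tested genes. The 5 tested had log2 folds between −0.09 and 0.01. Psmc4 read 7856 ± 717 with RANKL and 7810 ± 494 with M-CSF alone, and Psmc2 read 15166 ± 1093 with RANKL and 15351 ± 1302 with M-CSF alone. The 95% intervals of the 5 folds lay between 0.816 (Psmc3) and 1.16 (Psmc4). Psmc6 was dim, at 217 ± 14.5 with RANKL and 195 ± 18.5 with M-CSF alone, and was not tested.

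Of the 19S subunits without ATPase activity, 3 of 8 tested were higher and none was lower. This share of 37.5% compares with 57.8% called and 28.9% higher among all tested genes. All 3 belong to the lid, the part of the particle that removes ubiquitin chains. Of the 5 tested lid members 60.0% were called, close to the 57.8% of all tested genes. Psmd14, the deubiquitinating enzyme of the lid, read 5813 ± 154 with RANKL and 4462 ± 593 with M-CSF alone. It was 1.30-fold higher (log2 0.38 ± 0.10 SE, limma adjusted p = 0.00738, or 0.0557 without moderation of the variance). Psmd7, which pairs with Psmd14 in the lid, read 6057 ± 175 with RANKL and 4476 ± 153 with M-CSF alone and was 1.35-fold higher (limma adjusted p = 0.000652). Psmd12, a scaffold subunit of the lid, read 5765 ± 388 with RANKL and 4337 ± 118 with M-CSF alone and was 1.33-fold higher (limma adjusted p = 0.00155). The mean ± SD ranges of the groups do not overlap for any of the 3, nor for any other called member. This adds nothing to the calls themselves. With both SDs doubled none of the 3 passed.

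Other lid subunits did not all share these rises. Psmd13 read 15913 ± 1299 with RANKL and 15048 ± 1763 with M-CSF alone, a fold of 1.06 with an interval of 0.915 to 1.22. Psmd8 read 3021 ± 239 with RANKL and 3231 ± 979 with M-CSF alone, and its wide spread leaves an interval of 0.717 to 1.22. Psmd11 was not tested, at 865 ± 106 with RANKL and 717 ± 47.0 with M-CSF alone. Its adjusted p was 0.0560 in limma when genes were admitted by signal. Psmd3 read at background. Psmd6, a further lid subunit that the array lists under an older name and that the member rule therefore misses, read 717 ± 47.2 with RANKL and 556 ± 70.6 with M-CSF alone, 1.29-fold higher (limma adjusted p = 0.0157). Sem1, a small lid subunit also outside the member rule, was lower (log2 −0.20, limma adjusted p = 0.0169). Against 57.8% of all tested genes, none of the 3 base subunits was called. They are Psmd1 and Psmd2, which hold the particle together and dock its partners, and the ubiquitin receptor Psmd4, with log2 folds of −0.01, 0.09 and 0.09. The split into lid and base was made after the values were seen.

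The largest rise of any tested member was that of an assembly chaperone. Psmd10, or gankyrin, a chaperone of the ATPase ring that also binds the retinoblastoma protein, read 5996 ± 429 with RANKL and 2552 ± 48.4 with M-CSF alone. It was 2.35-fold higher (log2 1.23 ± 0.09 SE, limma adjusted p = 2.46e-07) and the only tested member with a change of at least 2-fold, although Psmb8 also reached it after background subtraction (log2 −1.01). Psmd5, another chaperone of that ring, read 795 ± 110 with RANKL and 489 ± 61.0 with M-CSF alone. It was not tested because of its detection p, and its limma adjusted p was 0.000455 when genes were admitted by signal. Psmd9, the third of these chaperones, read 404 ± 48.6 with RANKL and 442 ± 51.0 with M-CSF alone and did not pass (limma adjusted p = 0.363). Chaperones of the 20S core are listed on the array under older names. Psmg1 read 2688 ± 377 with RANKL and 1853 ± 120 with M-CSF alone and was 1.45-fold higher (limma adjusted p = 0.00178). Its partner Psmg2 read 2050 ± 40.9 with RANKL and 1812 ± 138 with M-CSF alone and did not pass (limma adjusted p = 0.133). Psmg3 read 2126 ± 225 with RANKL and 1449 ± 35.4 with M-CSF alone and was 1.47-fold higher (limma adjusted p = 0.000654).

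Psmc3ip, the name match without a proteasome role, read 1687 ± 205 with RANKL and 2239 ± 103 with M-CSF alone and was 1.33-fold lower (limma adjusted p = 0.00672). The tissue-specific core subunits are also listed under older names. Psma8, the alpha subunit of male germ cells, read 249 ± 37.7 with RANKL and 229 ± 24.8 with M-CSF alone. Psmb11, the beta subunit of the thymic cortex, read 169 in both groups and was not detected.

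Partners of the 26S proteasome outside the PSM names went both ways. Of 9 tested, 3 were higher and 3 lower, with a median log2 fold of 0.19. The share called was 66.7%, near the 57.8% of all tested genes (28.9% higher and 29.0% lower). Adrm1, a ubiquitin receptor of the 19S base, was 1.25-fold higher, with 3200 ± 152 with RANKL and 2557 ± 216 with M-CSF alone (limma adjusted p = 0.0131). Uchl5, the deubiquitinase that Adrm1 recruits, was 1.28-fold lower, with 3447 ± 218 with RANKL and 4399 ± 517 with M-CSF alone (limma adjusted p = 0.0126). The other called rises were those of the deubiquitinase Usp14 (1.25-fold, limma adjusted p = 0.0229) and the ligase Ube3c. Ube3c passed narrowly (log2 0.26, limma adjusted p = 0.0498). Pomp, the maturation chaperone of the core, fell by 0.22 on the log2 scale and the small lid subunit Sem1 fell by 0.20. With both SDs doubled none of these 6 passed, and without moderation only 1 of the 3 rises did. After background subtraction 2 partners were called higher.

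The ubiquitin genes Ubb and Rps27a were not called, with log2 folds of −0.04 and 0.04. Ubb lies close to the highest mean of the array (70773 with RANKL and 71023 with M-CSF alone). Uba1, the main ubiquitin-activating enzyme, was 1.35-fold higher, with 2663 ± 113 with RANKL and 1974 ± 188 with M-CSF alone (limma adjusted p = 0.00299). Uba1 was the only gene called of the 5 tested in the list of ubiquitin genes and activating enzymes. Of 10 tested shuttle factors and p97 partners, 1 was higher and none was lower. It was Rad23b, which carries ubiquitinated proteins to the 19S particle (1.34-fold, limma adjusted p = 0.00536). Both lists were called less often than all tested genes, of which 57.8% were called and 28.9% were higher. These shares were not tested.

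Regulators of proteasome genes had 3 of 7 tested genes lower and none higher, with a median log2 fold of −0.23. The share called was 42.9%, against 57.8% of all tested genes (29.0% lower). Nfe2l1, the factor that raises constitutive subunit genes when proteasome activity falls short, read 4398 ± 442 with RANKL and 5482 ± 492 with M-CSF alone, 1.25-fold lower (limma adjusted p = 0.0196). It did not pass with both SDs doubled (limma adjusted p = 0.298) or without moderation. Mafg, a small Maf partner of such factors, read 2982 ± 189 with RANKL and 5004 ± 281 with M-CSF alone, 1.68-fold lower (limma adjusted p = 2.37e-05). A second array gene of Mafg, under an older name, was 1.52-fold lower (limma adjusted p = 0.000475). Keap1, which marks the related factor Nfe2l2 for degradation, read 909 ± 105 with RANKL and 1517 ± 83.6 with M-CSF alone, 1.67-fold lower (limma adjusted p = 0.000113). Nfe2l2 itself was left out by its detection p and read 530 ± 87.2 with RANKL and 779 ± 128 with M-CSF alone. It was lower when genes were admitted by signal (limma adjusted p = 0.00543).

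Genes of interferon signalling, the pathway known to raise immunoproteasome subunits, were mostly lower too. Of 11 tested, 9 were lower and 1 higher, against 29.0% lower and 28.9% higher among all tested genes, with a median log2 fold of −0.89. Irf1, the factor through which interferon gamma acts on Psmb9 in other cells, read 791 ± 19.3 with RANKL and 1470 ± 139 with M-CSF alone (log2 −0.89, limma adjusted p = 1.30e-05). Irf2 read 3764 ± 191 with RANKL and 8378 ± 1034 with M-CSF alone, 2.23-fold lower (limma adjusted p = 1.30e-06). Irf1 and Irf2 were named after the values were seen. Irf8 was 3.95-fold and Irf9 2.91-fold lower. Stat2 was not detected with RANKL (170 ± 4.69, against 399 ± 29.0 with M-CSF alone), so it was at least 2.03-fold lower, with the detection floor in place of the RANKL mean (limma adjusted p = 2.58e-07). The interferon gamma receptor chains split, with Ifngr1 1.73-fold lower and Ifngr2 1.28-fold higher (limma adjusted p = 0.0483). Ifngr2 no longer passed with all array genes tested, after background subtraction, with both SDs doubled, without moderation or without the intensity trend. Whether these genes take part in the change of the immunoproteasome was not tested.

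Class I antigen presentation, the use to which immunoproteasome products are put, was mixed, with 3 of 7 tested genes lower, 1 higher and a median log2 fold of −0.34. The share called, 57.1%, is close to the 57.8% of all tested genes. Nlrc5, the activator of class I genes, read 281 ± 33.6 with RANKL and 501 ± 71.2 with M-CSF alone (log2 −0.84, limma adjusted p = 0.00012). Pdia3, a component of the peptide-loading complex, was 1.27-fold lower. The loading factor Tapbpl was 1.29-fold lower, with 203 ± 12.3 with RANKL and 262 ± 20.8 with M-CSF alone. With RANKL its detection p of 0.0135 did not pass, although its mean lay just above the detection floor. Its log2 fold was −0.99 after background subtraction against −0.37 without. With both SDs doubled Pdia3 and Tapbpl did not pass, which leaves 1 lower gene. H2-K1, a class I heavy chain, read 1910 ± 181 with RANKL and 1991 ± 493 with M-CSF alone and did not pass (limma adjusted p = 0.766). B2m, the light chain, was left out by its detection p and read 24212 ± 1014 with RANKL and 33712 ± 1440 with M-CSF alone. It was lower when genes were admitted by signal (log2 −0.48, limma adjusted p = 3.96e-05). H2-D1, another class I heavy chain, was also left out by its detection p. It read 10398 ± 1111 with RANKL and 9105 ± 628 with M-CSF alone. With genes admitted by signal it did not pass (log2 0.19, limma adjusted p = 0.101). These chains were chosen after the values were seen.

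**Figure D3:**
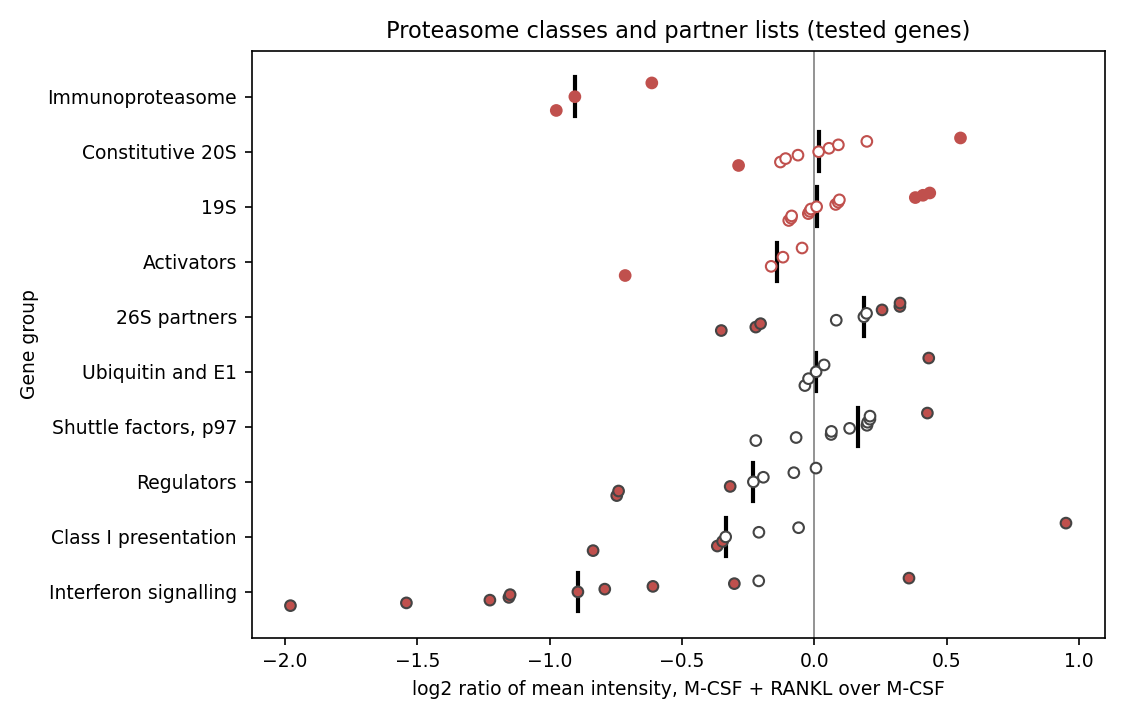
Log2 ratio of mean intensity (M-CSF + RANKL over M-CSF) of each tested gene in 4 proteasome classes and 6 lists of partner genes, one row per group. Filled points passed the limma adjusted p threshold of 0.05, open points did not, and the black bar is the median of the tested genes. The immunoproteasome (median −0.91) and interferon signalling (median −0.89) lie to the left, and the constitutive core and 19S rows centre on 0.

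Markers of other cells that hold immunoproteasomes are given beside this. For the 9 dendritic cell markers, the summed mean signal was 3919 with RANKL and 4557 with M-CSF alone. Of them, 2 were tested, H2-Aa, which did not pass, and Batf3, which was lower. Flt3, Itgax, Cd209a and Xcr1 read at background in both groups. Siglech was not tested and read 200 ± 15.1 with RANKL and 219 ± 19.7 with M-CSF alone, above the detection floor. Zbtb46 (183 ± 27.4 with RANKL and 150 ± 19.1 with M-CSF alone) and Ccr7 (171 ± 26.3 and 154 ± 5.08) lay under it. Of the 5 B cell markers 1 was tested, the dim Cd79b. It read 205 ± 21.3 with RANKL and 286 ± 7.64 with M-CSF alone and was lower (log2 −0.48, limma adjusted p = 0.00102). For the 8 granulocyte genes on the array the sum was 15393 with RANKL and 20649 with M-CSF alone, with S100a8 and S100a9 lower and 5 not called. For the 9 macrophage markers the sum was 52284 with RANKL and 175572 with M-CSF alone. These sums are carried by a few bright probes. With RANKL, Cd68, which did not pass, gave 33656 of the macrophage sum. C1qb and C1qc gave 48975 and 34802 of it with M-CSF alone, and H2-Aa gave 2601 of the dendritic sum with RANKL and 3165 with M-CSF alone. Their part in the lower immunoproteasome signal was not tested.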

How the data were processed

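RNA was measured on Illumina bead arrays by a core facility, per the labels. The authors deposited, per array gene and group, a normalized linear intensity, as the mean of 3 biological replicates with the SD between arrays, and a detection p-value. The sources used here do not give the normalization or the array version. For some bright genes the detection p-value does not follow the signal, which left 6 members at or above the floor out of the test. The dim Hbb-b1 had a detection p under 0.01 in both groups while lying under the floor. The floor is the lowest signal called detected by a detection p that moves in equal steps, 196 with RANKL and 198 with M-CSF alone.

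From these, log2 ratios of means were computed. Variances came from the SDs by the delta method, pooled on 4 degrees of freedom and moderated with an intensity trend (squeezeVar, limma 3.58.1, R 4.3.3, prior degrees of freedom 7.49). Two-sided p-values were adjusted by Benjamini-Hochberg for 11012 array genes. Named are Psmb5 to Psmb10, the activators, the inhibitor, the 3 largest called changes of each class, members called against their class, uncalled members, and the 3 largest called changes each way of each partner list. Other partner genes were named after their values were seen. Symbols and promoters are RefSeq's (GRCm38.p6). The number of arrays limits the precision. The members and lists were chosen with earlier results of these data known.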

Additional observations from a re-analysis of the deposited data

How the results depend on the processing

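The alternatives were no detection filter, a signal filter, background subtraction, centring on the median of all or of the tested genes, doubled SDs, no moderation, no intensity trend, the series value table and all array genes of a symbol. The last changed nothing, since no member symbol has a further array gene. No called member changed direction. With both SDs doubled, 3054 array genes were called, 2 members were higher (Psmb7 and Psmd10) and 3 lower (Psmb8, Psmb9 and Psme1), because the spread was enlarged by construction. With the signal filter 8 members were higher, the additions being Psmb2, Psmb3 and Psmd5, which the detection p had left out. With no detection filter 7 were higher, since Psmb2 did not pass. The median log2 fold of the assembly chaperones was 0.70 with the signal filter and with no detection filter, since Psmd5 then enters. The median of the immunoproteasome ran from −0.99 to −0.90 over all alternatives, that of the constitutive core from 0.02 to 0.07 and that of the 19S subunits from 0.01 to 0.08. Psmb8, Psmb9, Psme1, Psmb7 and Psmd10 stayed called in every alternative. With both SDs doubled no partner of the 26S proteasome, ubiquitin gene, activating enzyme or shuttle factor was called. The regulators had 2 lower genes with both SDs doubled and without moderation, and 4 with the signal filter. The class I list had 1 lower gene with both SDs doubled and 4 with the signal filter. No paired analysis was possible because each group is deposited as a mean and SD, and for the same reason no replicate could be left out.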

Other observations

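Several members gave a detection p that did not follow their signal. Psma3 had detection p-values of 0.498 with RANKL and 0.484 with M-CSF alone at means of 19166 and 16606, and Psmb2 had 0.0376 with RANKL and 0.159 with M-CSF alone at means of 14881 and 12709. Of 11973 array genes that reached the floor at least once, 1149 were left out of the test by their detection p.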
